A study of Mus musculus with 30 samples.

Results

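The 10 genes described here in mouse liver encode subunits of the mTOR complexes, regulators of mTORC1 and the amino acid sensing kinase GCN2. The genes are Mtor, Rptor, Rictor, Rraga, Rragc, Rragd, Depdc5, Tsc1, Sesn1 and Eif2ak4. They were found by their gene symbols in the count tables, where all 10 were present among 14173 genes and all 10 passed the filter on low counts in every comparison. Liver RNA came from 30 male C57BL/6J mice aged 6 months, 6 from each of 5 diets. Each mouse gave 1 library, so mice were the replicates. After a run-in on Cas-20% for the mice of both casein diets and on Soy-20% for those of all soy diets, the mice ate their assigned diet for 12 weeks from the age of 12 weeks, and were killed after a 4 h fast. The casein control diet (Cas-20%) held 20% casein with 0.57% methionine and 0.41% cysteine, and the restricted casein diet (Cas-5%) held 5% casein with 0.15% methionine and 0.1% cysteine. Soy-20% held 20% soy protein with 0.22% methionine and 0.22% cysteine. Soy-20% + SAA held the same share of soy protein with methionine and cysteine added to 0.58% and 0.41%, close to the casein control. The restricted soy diet (Soy-10%) held 11.5% soy protein with 0.13% methionine and 0.13% cysteine. Protein and sulfur amino acids were both lower in Cas-5% and Soy-10% than in Cas-20%, Soy-20% and Soy-20% + SAA. Their parts in a difference from any of these control diets cannot be told apart. Between Cas-5% and Soy-10% the source and the amount of protein differ together, and cannot be told apart either.

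The kinase mTOR works in a pair of complexes. With Raptor (Rptor) it forms mTORC1, which drives protein synthesis when amino acids are present, and with Rictor it forms mTORC2, which acts downstream of insulin. Amino acids act on mTORC1 through the Rag GTPases (Rraga, Rragc, Rragd), which bring it to the lysosome; GATOR1, of which Depdc5 is a subunit, and the Sestrins (Sesn1) oppose this step, and the TSC complex, held together by Tsc1, switches off Rheb, the GTPase that activates mTORC1. GCN2 (Eif2ak4) is a separate sensor that is activated by uncharged transfer RNA and slows translation by phosphorylating eIF2. In liver these proteins are regulated mainly by phosphorylation, binding and nucleotide state, and the data here measure only their messenger RNA.

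Counts per library summed to between 7694015 and 14565542. Reads come from the 3′ end of transcripts, so a count is not divided by transcript length, and levels are compared between diets and not between genes. In bulk liver RNA, fewer cells of a type and less RNA per cell cannot be told apart. Hepatocyte markers were abundant in every liver, with Alb highest and a summed normalized count of 682367 to 918334 over 6 markers. Libraries 3 to 6 of Soy-20% + SAA stood apart from the others. In each library the count of a gene, relative to its mean over all libraries, was regressed on the GC content of the last 200 bases of its transcripts, and the slope was 0.064, 0.206, 0.196 and 0.221 on the log2 scale per 10% GC in those 4 libraries. It lay between -0.068 and 0.030 in the 24 libraries of the other diets, and was -0.028 and -0.032 in libraries 1 and 2 of Soy-20% + SAA. The 3′ GC content of 9 of the 10 genes was below the median over genes of 41.5%, from 27.0% for Rictor to 41.1% for Depdc5, and that of Rptor was 47.0%. The calls of the 10 genes that use Soy-20% + SAA are therefore given also with this slope as a covariate and without those 4 libraries. Slopes above 0.030 occurred only in this diet, so slope and diet are partly confounded. Both settings lean on libraries 1 and 2 of Soy-20% + SAA, and they are not independent of each other. Soy-10% liver 4 held pancreatic acinar messenger RNA, with a summed count of 5413 over 5 markers (Ctrb1 highest) against 0 to 2.03 in the other 5 Soy-10% livers.

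All 10 genes are protein coding and lie on the plus strand of GRCm38. Mtor was annotated at chr4:148448611-148557683, Rptor at chr11:119602905-119899576 and Rictor at chr15:6708379-6800401. The Rag genes lay at chr4:86575668-86577285 (Rraga, a gene of 1 exon), chr4:123917446-123936997 (Rragc) and chr4:32983037-33022180 (Rragd). Depdc5 was at chr5:32863701-32994236, Tsc1 at chr2:28641228-28691167, Sesn1 at chr10:41809935-41908424 and Eif2ak4 at chr2:118388618-118475234. Other annotated genes overlap Mtor, Rptor, Rragc, Rragd, Depdc5 and Sesn1, but none lies within 500 bases of the 3′ end of any of the 10 genes, where the reads are taken.

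Promoters were read from RefSeq (GRCm38.p6), from 250 bases before to 50 bases after the start, with 12 promoters for the 10 genes. Each was searched on both strands for the element bound by ATF4 with C/EBP proteins (TGATGNAAN), the lysosomal gene element bound by TFEB (TCACGTGA) and the forkhead element bound by FoxO factors (GTAAACA). These letters occur in 3.95%, 0.974% and 3.65% of 32851 promoters in the table, and the motifs did not overlap in the promoters shown. Of the 12 promoters, 1 held a match, a forkhead element on the minus strand of a Sesn1 promoter at chr10:41810324-41810623, shown in capitals. The promoters of Mtor (chr4:148448332-148448631), which differed between the casein diets, and of Rraga (chr4:86575423-86575722), which differed between the restricted diets, are shown with it because the results below turn on these genes, and neither held a match.
Mtor: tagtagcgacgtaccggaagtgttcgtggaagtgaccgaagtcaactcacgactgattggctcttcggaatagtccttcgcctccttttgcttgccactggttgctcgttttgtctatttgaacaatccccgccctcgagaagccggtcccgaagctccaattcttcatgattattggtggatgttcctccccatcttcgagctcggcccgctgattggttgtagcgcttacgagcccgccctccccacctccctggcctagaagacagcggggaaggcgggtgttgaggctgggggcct
Rraga: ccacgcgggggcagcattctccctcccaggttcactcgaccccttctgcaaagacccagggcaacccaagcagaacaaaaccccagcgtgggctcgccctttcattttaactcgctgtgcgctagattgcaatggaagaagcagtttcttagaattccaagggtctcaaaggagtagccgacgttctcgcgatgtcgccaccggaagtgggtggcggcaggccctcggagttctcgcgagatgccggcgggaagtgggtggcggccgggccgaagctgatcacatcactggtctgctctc
Sesn1: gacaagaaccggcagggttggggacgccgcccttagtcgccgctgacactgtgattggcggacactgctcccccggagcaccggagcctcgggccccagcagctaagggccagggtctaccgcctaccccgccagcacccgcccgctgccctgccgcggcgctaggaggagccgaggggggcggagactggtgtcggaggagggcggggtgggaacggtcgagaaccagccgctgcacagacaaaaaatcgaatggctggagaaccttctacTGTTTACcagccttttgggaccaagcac

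Across the 5 diets the levels of the 10 genes stayed within a narrow range. The highest diet mean was between 1.14 and 1.53 times the lowest, with Rragc at the lower end and Rragd, the gene with the fewest reads, at the upper. A difference among the 5 diets was called for 5 of the 10 genes, Rptor (adjusted p = 0.000984), Tsc1 (0.00407), Mtor (0.00477), Eif2ak4 (0.00775) and Rraga (0.0166), by edgeR's quasi-likelihood test over 30 livers with Benjamini-Hochberg adjustment over all genes tested. By the same test 43.4% of 12561 genes were called, so the share among the 10 was near that of all genes. Without Soy-20% + SAA libraries 3 to 6 the call held for Mtor (0.0247) and Rraga (0.0396), was lost for Rptor (0.276), Tsc1 (0.224) and Eif2ak4 (0.122), and was made for Rictor (0.00484). With the GC slope as a covariate it held and was lost for the same genes, and was made for Rictor (0.00765).

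**Figure D1:**
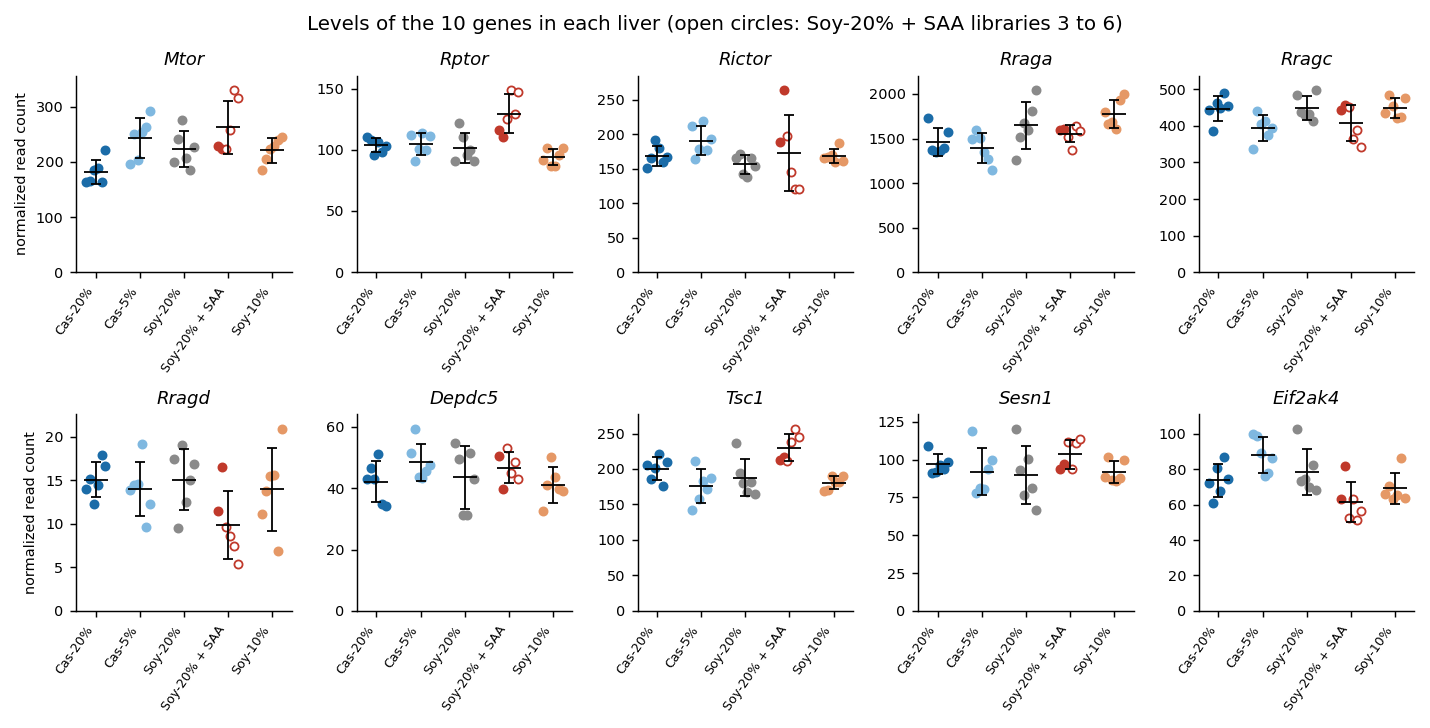
Normalized read count (y axis, from 0) of each of the 10 genes in the 6 livers of each diet (x axis); bars mark the mean and SD, and open circles are Soy-20% + SAA libraries 3 to 6. Cas-20% had the lowest mean of Mtor, 182, and in Soy-20% + SAA the 4 open circles lie above both filled ones for Rptor, and 3 of them lie below both for Rictor.

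Casein restriction was compared first. Of the 10 genes, 1 was called in Cas-5% against Cas-20%, the kinase gene Mtor, which rose 1.36-fold (95% interval 1.16 to 1.59). Of all 12076 genes tested in that comparison 24.9% were called. The median log2 fold change of the 10 genes was -0.01, against 0.02 over all genes tested, and the median of its size was 0.17 against 0.19. In Soy-10% against Soy-20% + SAA, 2 of the 10 genes were called, Rptor and Tsc1, both lower, where 17.0% of 11983 genes were called. The median log2 fold change of the 10 genes was -0.11 there, against -0.01 over all genes. Neither call held without libraries 3 to 6 of the control diet or with the GC slope as a covariate. Over all genes the 2035 calls became 317 and 358 in those fits. With 1 liver left out they ran from 1219 to 3119.

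**Figure D2:**
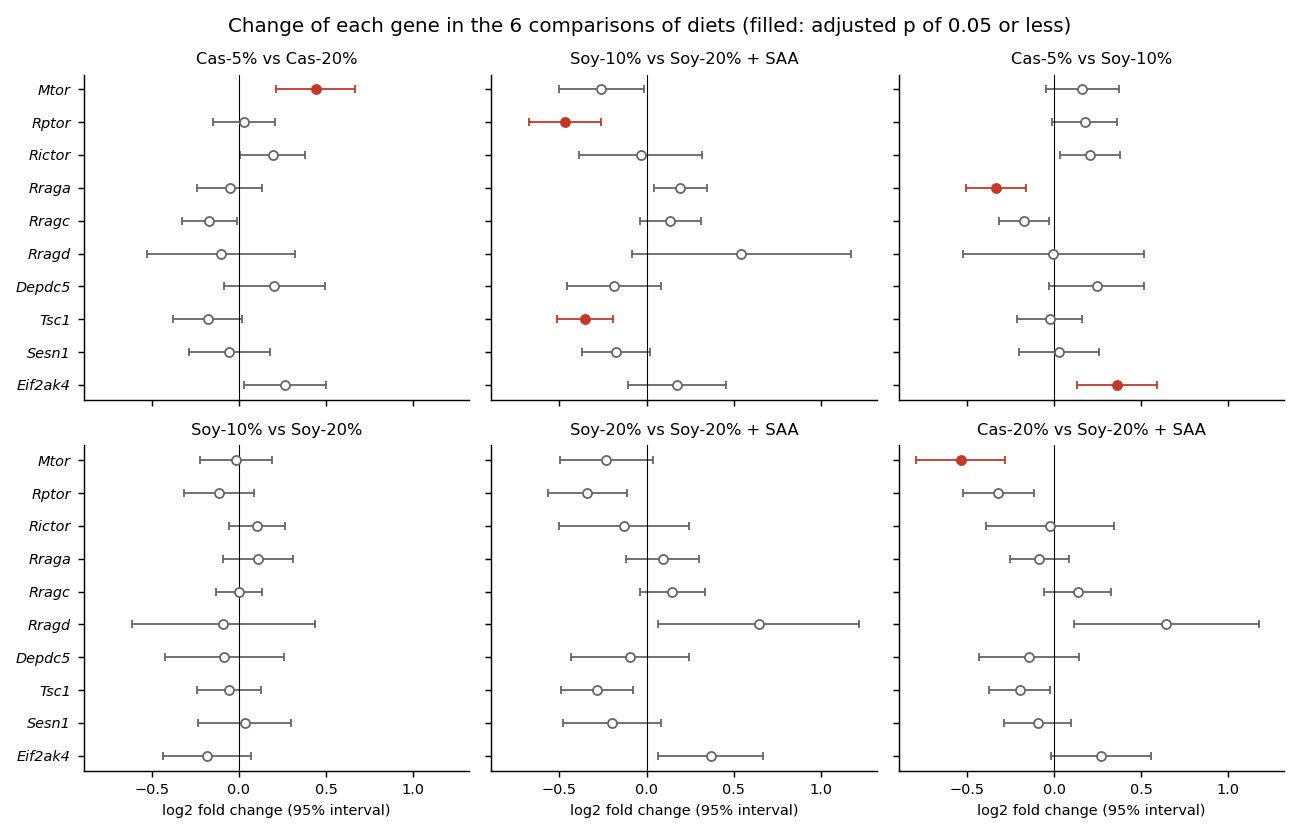
Log2 fold change (x axis) of the 10 genes (y axis) in the 6 comparisons of diets, each fitted on its 12 livers; bars are 95% intervals and filled points have an adjusted p of 0.05 or less. Mtor was called in Cas-5% against Cas-20% and in Cas-20% against Soy-20% + SAA, Rptor and Tsc1 in Soy-10% against Soy-20% + SAA, Rraga and Eif2ak4 in Cas-5% against Soy-10%, and none of the 10 in the other 2 comparisons.

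When Soy-10% was set against the soy control without added amino acids, Soy-20%, none of the 10 genes was called by edgeR or by DESeq2, and none had an unadjusted p under 0.05, where 0.866% of 11897 genes were called by edgeR and 12.3% had an unadjusted p under 0.05. The log2 fold changes ran from -0.19 (Eif2ak4, 95% interval -0.44 to 0.07) to 0.11 (Rraga, -0.09 to 0.31). Over all genes edgeR called 103 here, and 50 to 146 when 1 liver was left out, and DESeq2 called 217. For the addition of sulfur amino acids to soy, Soy-20% against Soy-20% + SAA, none of the 10 was called by edgeR or DESeq2, 4 had an unadjusted p under 0.05 (Rptor, Tsc1, Rragd and Eif2ak4), as had 24.2% of all genes tested, and 0.00838% of 11932 genes, 1 gene, was called. Without Soy-20% + SAA liver 1 that count was 1587. In 1 fit of all 30 livers Rptor (adjusted p = 0.00816), Tsc1 (0.0252) and Eif2ak4 (0.0420) were called in that comparison, as were 1793 of all genes, and with the covariate or without libraries 3 to 6 neither any of the 10 nor any other gene was called. Between the control diets matched in methionine, Cas-20% against Soy-20% + SAA, 1 of the 10 was called, Mtor, where 2.43% of 11988 genes were. That share rests on single livers, since the 291 genes called became 9 without Soy-20% + SAA liver 6 and 1817 without liver 1. Cas-5% against Soy-10% compares the restricted diets, which were close in methionine but held 5% casein and 11.5% soy protein. In it 2 of the 10 were called, Rraga and Eif2ak4, where 10.7% of 12041 genes were. The comparisons with Soy-20% + SAA share those 6 livers.

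Mtor encodes the catalytic subunit of both complexes. Its normalized count was 164 to 221 in Cas-20% (median 176) and 196 to 293 in Cas-5% (median 253), means of 182 ± 22.3 and 244 ± 37.1 (SD, n = 6 each). The Cas-5% livers were mostly higher, and the ranges overlapped. The log2 fold change was 0.44 ± 0.11 (SE, edgeR, adjusted p = 0.00578), and it stayed between 0.38 and 0.50, with an adjusted p of at most 0.0163, when each of the 12 livers was left out. With the GC slope as a covariate it was 0.42 (adjusted p = 0.0164). The same gene was higher in Soy-20% + SAA than in Cas-20%. Its count in Soy-20% + SAA was 223 to 330 (median 244, mean 263 ± 48.0), just above every Cas-20% liver, and 2.69% of all genes tested had no overlap between these diets. Red cell markers differed here too, 4 of 5 being higher in Cas-20%, as was the hepatocyte marker Cps1, and their part in the result was not tested. Cas-20% against Soy-20% + SAA gave a log2 fold change of -0.54 ± 0.12 (adjusted p = 0.0420), but -0.32 (0.643) without libraries 3 to 6 and -0.33 (0.328) with the covariate. The adjusted p also passed 0.05 in 9 of the 12 fits that left out 1 liver, reaching 0.0969. In libraries 1 and 2 of Soy-20% + SAA the count was 229 and 223, and in libraries 3 to 6 it was 224, 259, 330 and 315.

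Soy-20% (185 to 276, mean 223 ± 32.7) and Soy-10% (186 to 245, mean 221 ± 22.2) had nearly equal mean levels of Mtor, with a log2 fold change between them of -0.02 (95% interval -0.22 to 0.19). Ordered by diet mean, Mtor was highest in Soy-20% + SAA, then in Cas-5%, Soy-20%, Soy-10% and Cas-20%. Only the step from Soy-10% to Cas-20% was larger than the larger SD of the 2 diets. The casein effect on Mtor (0.44) and the soy effect against Soy-20% + SAA (-0.26) differed by 0.69 ± 0.16 on the log2 scale (interaction over 24 livers, adjusted p = 0.0106). In that test 2 of the 10 genes were called, Mtor and Rptor, where 8.69% of 12532 genes were. Over all genes the 1089 calls became 533 with the covariate and 296 without libraries 3 to 6. With 1 liver left out they ran from 719 to 1941. With the covariate the soy effect on Mtor itself was -0.00 (0.995), and without libraries 3 to 6 it was -0.04 (0.897). The difference was 0.48 (0.151) without libraries 3 to 6, 0.50 (0.0781) with the covariate and 0.45 (0.0699) when Soy-20% took the place of Soy-20% + SAA.

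Rptor encodes Raptor, the mTORC1 subunit that recruits substrates and binds the Rag GTPases. Its count was 110 to 149 in Soy-20% + SAA (median 127, mean 130 ± 15.7) and 86.6 to 102 in Soy-10% (median 93.5, mean 94.0 ± 6.8). All Soy-10% livers were below all Soy-20% + SAA livers, as were those of 6.22% of all genes tested with no overlap in either direction. Rptor was lower in Soy-10% by 0.47 ± 0.097 on the log2 scale (adjusted p = 0.00713), and this was 0.28 (0.286) without libraries 3 to 6 and 0.29 (0.176) with the covariate. In the other diets Rptor varied little. Cas-20% livers lay between 96.1 and 110 (mean 104 ± 5.5), Cas-5% livers between 91.0 and 113 (mean 105 ± 8.8), and Soy-20% livers between 90.6 and 122 (mean 102 ± 12.3). With casein restriction it had a log2 fold change of 0.03 (95% interval -0.15 to 0.21). Against Soy-20% it was -0.12 (-0.32 to 0.09) in Soy-10%. For Rptor the casein and soy effects differed by 0.49 ± 0.12 (adjusted p = 0.0142), 0.30 (0.264) without libraries 3 to 6, 0.35 (0.101) with the covariate and 0.14 (0.565) when Soy-20% took the place of Soy-20% + SAA. The highest Cas-20% liver (110.1) lay just below the lowest Soy-20% + SAA liver (110.4). Of all genes tested 2.69% had no overlap between these diets. The log2 fold change of Rptor was -0.32, not called by edgeR (adjusted p = 0.0674) and called by DESeq2 (0.0483). It was -0.16 (0.569) with the covariate and -0.13 (0.852) without libraries 3 to 6.

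**Figure D3:**
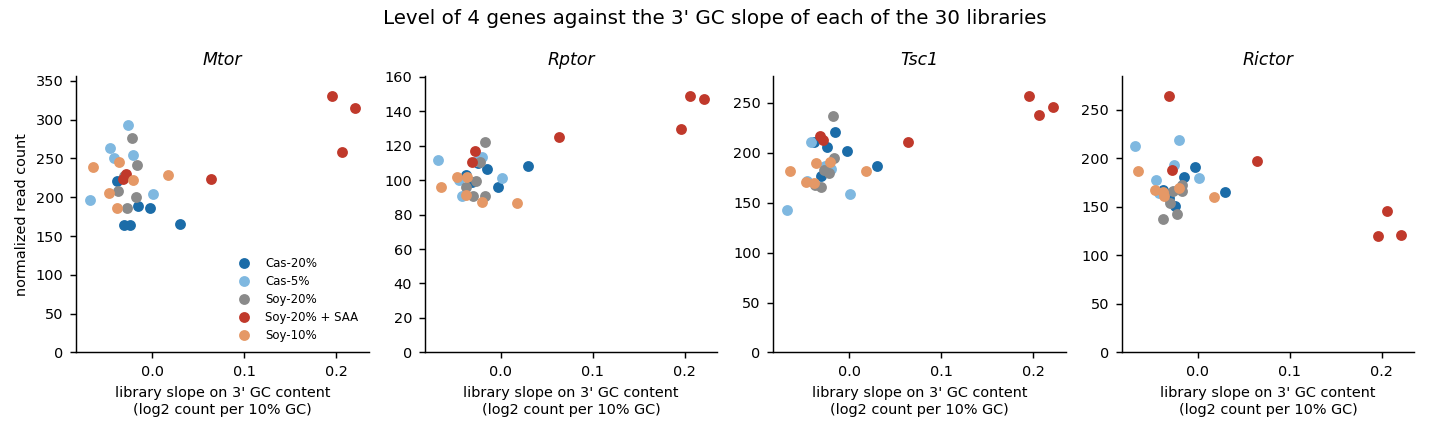
Normalized read count (y axis, from 0) of Mtor, Rptor, Tsc1 and Rictor against the slope of each of the 30 libraries on 3′ GC content (x axis, log2 count per 10% GC), coloured by diet. The 3 Soy-20% + SAA libraries with slopes from 0.196 to 0.221 sit to the right of all others, among the highest for Mtor, Rptor and Tsc1 and among the lowest for Rictor.

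Rictor defines mTORC2, and it was low in libraries 4 to 6 of Soy-20% + SAA. In Soy-20% + SAA its count was 188 and 264 in libraries 1 and 2, and 197, 146, 120 and 121 in libraries 3 to 6. The mean over the 6 livers was 173 ± 55.4, the largest SD of any diet. Cas-20% livers had 151 to 191 (mean 169 ± 14.5), Cas-5% livers 165 to 219 (mean 191 ± 21.2), Soy-20% livers 138 to 172 (mean 156 ± 14.0) and Soy-10% livers 161 to 187 (mean 168 ± 9.6). The ranges of all diets overlapped. No comparison was called for Rictor over all livers, with a log2 fold change of 0.19 in Cas-5% against Cas-20% (adjusted p = 0.124) and of -0.03 in Soy-10% against Soy-20% + SAA (0.909). With the GC slope as a covariate the soy value was -0.45 ± 0.11 (0.0445), and without libraries 3 to 6 it was -0.43 ± 0.12 (0.0962). For Rictor the casein and soy effects differed by 0.22 (0.511) over all 24 livers, 0.54 (0.0295) with the covariate and 0.61 (0.0302) without the 4 libraries. The values without the 4 libraries rest on 2 livers of Soy-20% + SAA, whose counts were 188 and 264. The values with the covariate lean on the same livers, since high slopes occurred only in that diet.

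**Figure D4:**
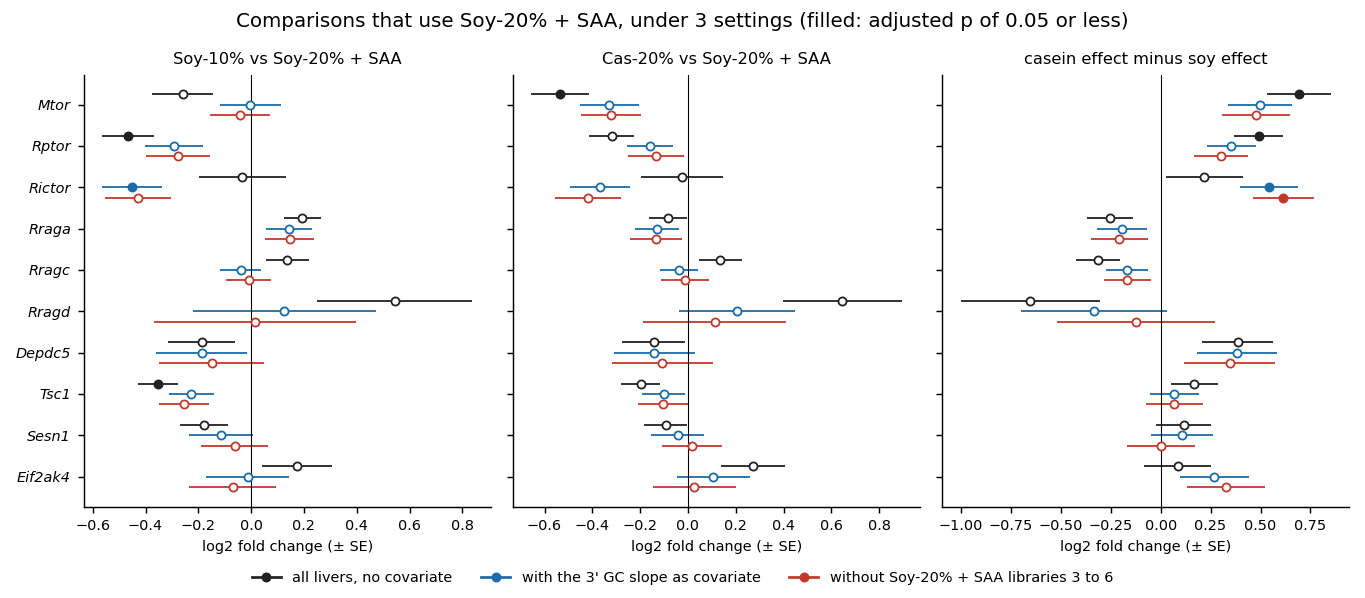
Log2 fold change ± SE (x axis) of the 10 genes (y axis) in 3 of the contrasts that use Soy-20% + SAA. These are Soy-10% against Soy-20% + SAA (left), Cas-20% against Soy-20% + SAA (middle) and the difference of the casein and soy effects (right). Fits were over all livers (black), with the GC slope as a covariate (blue) and without Soy-20% + SAA libraries 3 to 6 (red). Filled points have an adjusted p of 0.05 or less. The black points are called for Rptor and Tsc1 (left), Mtor (middle) and Mtor and Rptor (right), and none of these stays called in blue or red, while Rictor is called in blue at the left and in both colours at the right.

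Among the Rag GTPases, Rraga differed between the restricted diets, and that call held in every setting tried. RagA, its product, pairs with RagC or RagD to hold mTORC1 at the lysosome. Its count was 1143 to 1599 in Cas-5% (median 1423, mean 1395 ± 171) and 1606 to 1998 in Soy-10% (median 1740, mean 1780 ± 157), so every Cas-5% liver was below every Soy-10% liver, as were those of 5.86% of all genes tested with no overlap in either direction. Between the restricted diets the log2 fold change was -0.33 ± 0.082 (adjusted p = 0.0139), between -0.37 and -0.28 when each liver was left out, with an adjusted p of at most 0.0361, which includes the fit without Soy-10% liver 4. The stellate cell markers Colec11, Dcn and Reln were also higher in Cas-5% than in Soy-10%, as was the cholangiocyte marker Spp1, with a cholangiocyte sum of 435 ± 50.9 against 314 ± 31.9, and the red cell marker Alas2 was lower. The part of these cells in the results for Rraga and Eif2ak4 was not tested. Cas-20% (1346 to 1734, mean 1463 ± 156), Soy-20% (1262 to 2041, mean 1648 ± 264) and Soy-20% + SAA (1375 to 1641, mean 1553 ± 96.0) lay between, and no neighbours in the order of diets differed by more than the larger SD. Neither restriction changed Rraga past the threshold against its own control. The log2 fold change was -0.05 (95% interval -0.24 to 0.13) for casein. For soy it was 0.19 (0.04 to 0.34) against Soy-20% + SAA (adjusted p = 0.0704, 0.0493 by DESeq2) and 0.11 (-0.09 to 0.31) against Soy-20%. The first of these was 0.14 (0.425) with the covariate and 0.15 (0.476) without libraries 3 to 6.

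Rragc, which encodes RagC, had its lowest mean in Cas-5%. Its count was 337 to 442 in Cas-5% (mean 394 ± 35.4) and 386 to 490 in Cas-20% (mean 447 ± 34.3), ranges that overlapped. The log2 fold change of -0.17 ± 0.075 had an unadjusted p of 0.0375 and an adjusted p of 0.112, and without Cas-20% liver 2 the adjusted p was 0.0403. Soy-20% (mean 449 ± 33.2) and Soy-10% (mean 449 ± 26.9) were level, and Soy-20% + SAA had a mean of 408 ± 49.2. Rragd, the other partner of RagA, had the fewest reads of the 10 genes, 6 to 22 in a library. Its mean normalized count was 9.87 ± 3.9 in Soy-20% + SAA and between 14.0 and 15.1 in the other diets, and none of its comparisons was called. In libraries 3 to 6 of Soy-20% + SAA it was 5.4 to 9.7, and in libraries 1 and 2 it was 11.5 and 16.6. The log2 fold change of Soy-10% against Soy-20% + SAA was 0.54 (95% interval -0.08 to 1.17) over all livers and 0.01 without the 4 libraries.

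Of the brakes on mTORC1, Tsc1 was called in Soy-10% against Soy-20% + SAA, and Depdc5 and Sesn1 in no pair of diets. Tsc1 counts did not overlap between these diets, as for 6.22% of all genes tested. They were 211 to 256 in Soy-20% + SAA (median 227, mean 230 ± 19.2) and 170 to 191 in Soy-10% (median 181, mean 181 ± 9.2). This was a log2 fold change of -0.35 ± 0.076 (adjusted p = 0.00856), and -0.25 (0.212) without libraries 3 to 6 or -0.23 (0.170) with the covariate. The level of Tsc1 in the other diets was lower than in Soy-20% + SAA on average. Cas-20% livers had 176 to 221 (mean 200 ± 16.3), Cas-5% livers 142 to 211 (mean 176 ± 23.9) and Soy-20% livers 165 to 237 (mean 188 ± 26.5). The casein value was -0.18 (95% interval -0.38 to 0.02) and the value of Soy-10% against Soy-20% was -0.06 (-0.24 to 0.13). Depdc5 ranged from 31.2 to 59.3 over the 30 livers, and its largest log2 fold change was 0.25 in Cas-5% against Soy-10% (95% interval -0.03 to 0.52, adjusted p = 0.254). Sesn1 ranged from 66.3 to 120 and none of its 6 comparisons had an unadjusted p under 0.05. Its log2 fold change was -0.06 (-0.29 to 0.18) with casein restriction and 0.03 (-0.23 to 0.30) in Soy-10% against Soy-20%.

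Eif2ak4, which encodes the uncharged transfer RNA sensor GCN2, had its highest mean in Cas-5%. Its count was 75.9 to 99.9 in Cas-5% (median 87.8, mean 88.0 ± 10.2) and 62.9 to 86.6 in Soy-10% (median 65.8, mean 69.2 ± 8.9). The ranges overlapped through 1 Soy-10% liver at 86.6, the other 5 being at or below 70.2. Between the restricted diets its log2 fold change was 0.36 ± 0.11 (adjusted p = 0.0395). It was 0.35 with DESeq2 (0.0552), and the adjusted p passed 0.05 in 9 of the 12 fits that left out 1 liver, reaching 0.0835. Against Cas-20% (60.8 to 86.6, mean 73.7 ± 9.2) the log2 fold change in Cas-5% was 0.26 ± 0.11, with an unadjusted p of 0.0297 and an adjusted p of 0.0938. Soy-20% livers had 68.4 to 103 (mean 78.5 ± 12.8) and Soy-20% + SAA livers 51.3 to 81.7 (mean 61.3 ± 11.2). With soy restriction the log2 fold change was 0.17 (-0.11 to 0.46) against Soy-20% + SAA and -0.19 (-0.44 to 0.07) against Soy-20%, and both intervals include 0. The first value was -0.01 with the covariate and -0.07 without libraries 3 to 6.

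The rest of the pathway was read from lists of 72 other genes, of which 70 were in the tables. In Cas-5% against Cas-20%, 14 of 69 tested genes were called (20.3%), 8 higher and 6 lower, a share below that of all genes (24.9%). The list of sensors of amino acids or their products, with relatives of these sensors, held the largest share, with 4 of 7 called. Sesn2 (the leucine sensor Sestrin2) and Castor2 rose, and Sesn3 and Sar1b fell. In the list of Rag regulators and of Ragulator, the scaffold that anchors the Rags at the lysosome, 3 of 9 genes were called, Lamtor1, Lamtor2 and Lamtor4, each lower. Of the other lists, 1 of 9 was called among subunits of the mTOR complexes and 2 of 10 in GATOR and KICSTOR. None of 5 was called in TSC and Rheb, where 1 had an unadjusted p under 0.05. The DESeq2 fit also called none there, and 1 fit of all 30 livers called 1 of 6, lower. In the GCN2 and eIF2 arm 1 of 16 was called, and among targets of mTORC1 3 of 13. Stellate cell markers also differed between these diets, with 3 of 5 (Colec11, Dcn and Reln) higher in Cas-5% and a summed count of 4616 ± 536 against 3739 ± 300, Dcn being the most abundant. Red cell markers went the other way, with 4 of 5 lower in Cas-5% and a sum of 16122 ± 3648 against 24380 ± 6835 (Hbb-bs highest). Sinusoidal endothelial markers summed to 3049 ± 79.5 in Cas-5% and 2752 ± 125 in Cas-20%, with 1 of 5 (Kdr, the most abundant) called higher, and of 6 hepatocyte markers Alb and Hnf4a were called higher and Cps1 lower. The part of other cells in the changes of Mtor and of these lists was not tested.

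Sesn2 and Sesn3, close relatives of Sesn1 in the Sestrin family, changed in opposite directions with casein restriction. Sesn2 had a count of 34.3 to 57.9 in Cas-20% (mean 43.8 ± 8.8) and 68.5 to 83.6 in Cas-5% (mean 75.5 ± 4.9), with no overlap, as for 12.9% of all genes tested. Its log2 fold change was 0.80 (adjusted p = 0.000234). Sesn3 was 220 to 258 in Cas-20% (mean 236 ± 14.4) and 95.9 to 156 in Cas-5% (mean 125 ± 22.9), again with no overlap, and its log2 fold change was -0.92 (8.43e-06). With soy restriction against Soy-20% + SAA, Sesn3 was lower by 0.54 on the log2 scale (adjusted p = 0.00191, and 0.0277 with the covariate). Its log2 fold change stayed between -0.58 and -0.49 when each of 12 livers was left out. Without libraries 3 to 6, which leaves 2 livers of the control diet, its adjusted p was 0.0839. For Sesn2 the log2 fold change with soy restriction was 0.21 (0.447). Sesn2 was higher in Cas-5% than in Soy-10% by 0.68 (0.00269), and its counts in Soy-10% were 29.4 to 58.9 (mean 47.6 ± 10.2). The Sesn2 effect of casein minus that of soy was 0.59 with an adjusted p of 0.0899, which did not pass the threshold.

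Eif4ebp1 encodes 4E-BP1, a repressor of cap-dependent translation that mTORC1 inactivates. It was the gene of the lists called in both restrictions and against both soy controls. Its count was 521 to 585 in Cas-20% (mean 562 ± 23.0) and 808 to 1045 in Cas-5% (mean 890 ± 102). These ranges did not overlap, as for 12.9% of all genes tested, and the log2 fold change was 0.68 (adjusted p = 6.11e-06). In Soy-10% the count was 664 to 856 (mean 778 ± 62.9), against 520 to 683 in Soy-20% + SAA (mean 593 ± 59.7) and 552 to 711 in Soy-20% (mean 619 ± 56.1). The soy ranges overlapped at their edges. The log2 fold change was 0.39 (0.00713) against Soy-20% + SAA, 0.53 (0.00503) with the covariate and 0.54 (0.0105) without libraries 3 to 6. Against Soy-20% it was 0.33 (0.0386), the 1 call among 69 genes of the lists. With the covariate its adjusted p was 0.0598, and the adjusted p passed 0.05 in 10 of 12 fits that left out 1 liver.

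Deptor, an inhibitor of both mTOR complexes, was also higher in Cas-5%, at 3891 to 4606 (mean 4332 ± 285) against 3087 to 3520 in Cas-20% (mean 3306 ± 158). The groups did not overlap, as for 12.9% of all genes tested, and the log2 fold change was 0.40 (adjusted p = 0.000178). In Soy-10% against Soy-20% + SAA it was 0.11 (0.227). The difference of the casein and soy effects was 0.29 (adjusted p = 0.0291, 0.0587 with the covariate and 0.103 without libraries 3 to 6). This difference stayed between 0.26 and 0.32 when each of 24 livers was left out, and the call was lost in 3 of those fits. Lower in Cas-5% than in both Cas-20% and Soy-10% were Sar1b, a small GTPase of the secretory pathway and leucine sensor (log2 fold changes of -0.43 and -0.26), and Lamtor4, a Ragulator subunit (-0.28 and -0.22). Lpin1, a phosphatidate phosphatase that mTORC1 keeps out of the nucleus, fell in Cas-5% against Cas-20% by 0.75 (0.00960) and was lower in Soy-10% than in Soy-20% + SAA by 0.84 (0.00617; 0.105 with the covariate). Against Soy-10% the call was lost when 1 liver was left out in 6 of 12 fits for Sar1b and 1 for Lamtor4. Lamtor4 was also called in Soy-10% against Soy-20% + SAA (-0.22, adjusted p = 0.0464), a call lost in 11 of 12 such fits and with the covariate (-0.13, 0.461). Eif2s2, a subunit of the translation factor eIF2, rose with casein restriction by 0.56 (0.000456).

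**Figure D5:**
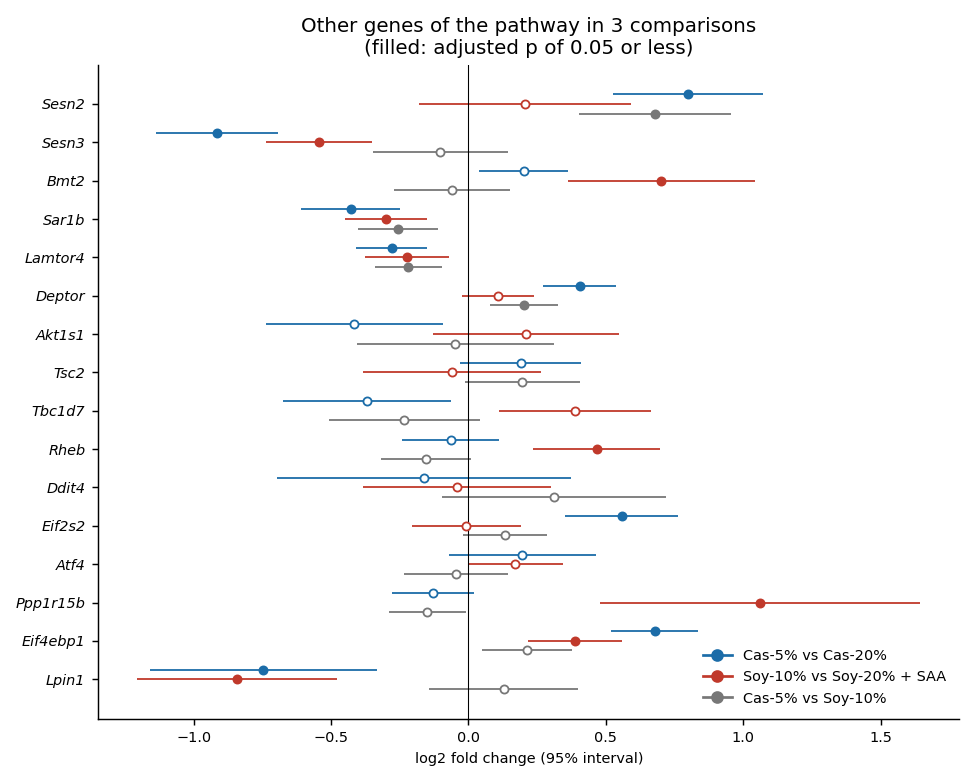
Log2 fold change (x axis) with its 95% interval for 16 other genes of the pathway (y axis) in Cas-5% against Cas-20% (blue), Soy-10% against Soy-20% + SAA (red) and Cas-5% against Soy-10% (grey); filled points have an adjusted p of 0.05 or less. Sesn3, Sar1b, Lamtor4, Eif4ebp1 and Lpin1 are called the same way in blue and red, and Sesn2 is called in blue and grey. Of the red calls only Eif4ebp1 and Sesn3 held with the GC slope as a covariate. Without Soy-20% + SAA libraries 3 to 6 only that of Eif4ebp1 held.

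In Soy-10% against Soy-20% + SAA, 17 of 68 tested genes of the lists were called (25.0%, against 17.0% of all genes), 7 higher and 10 lower. Without libraries 3 to 6 that count was 1 of 69, and with the GC slope as a covariate it was 2 of 68, while the count over all genes fell from 2035 to 317 and 358. The 1 was Eif4ebp1, and the 2 were Eif4ebp1 and Sesn3. Cholangiocyte markers summed to 314 ± 31.9 in Soy-10%, 432 ± 67.8 in Soy-20% + SAA and 459 ± 70.7 in Soy-20%, with the most abundant, Sox9, lower in Soy-10% than in both and 2 of 5 passing the filter on low counts. Against Soy-20% + SAA the endothelial marker Fcgr2b was also called higher and the hepatocyte marker Apoa1 lower, and the part of other cells in the soy results was not tested. Bmt2, which encodes SAMTOR, a sensor of the methionine product S-adenosylmethionine that holds GATOR1 active, was among the calls lost. Its count was 108 to 204 in Soy-20% + SAA (mean 136 ± 38.0) and 182.5 to 262 in Soy-10% (mean 221 ± 34.8), a log2 fold change of 0.70 (adjusted p = 0.0110) that was 0.28 (0.425) without the 4 libraries. With casein restriction Bmt2 had a log2 fold change of 0.20 (0.0653), and in Soy-10% against Soy-20% of 0.08 (0.831). Rheb, the GTPase that activates mTORC1, was higher in Soy-10% by 0.47 (0.0120), and by 0.16 (0.462) without those libraries. Ppp1r15b, a phosphatase subunit that reverses the action of GCN2, had 244 to 915 counts in Soy-20% + SAA against 874 to 1038 in Soy-10%. Its log2 fold change was 1.06 (0.0190), and 0.42 (0.159) with the covariate or 0.28 (0.289) without libraries 3 to 6.

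Atf4, Ddit4 and Tsc2 were called in no pair of diets. Atf4, the transcription factor that GCN2 induces through translation, had mean counts between 1311 ± 266 (Cas-20%) and 1552 ± 137 (Soy-10%) and a lowest adjusted p of 0.152. Ddit4, a stress-induced activator of the TSC complex, had mean counts between 39.6 ± 5.8 and 54.6 ± 20.8. Tsc2, the partner of Tsc1, had mean counts between 101 ± 14.0 (Soy-10%) and 114.5 ± 8.4 (Cas-5%). Akt1s1, which encodes the Raptor-binding inhibitor PRAS40, was the 1 of 70 genes of the lists called in Cas-20% against Soy-20% + SAA, higher by 0.58 (0.0435), and 0.49 (0.296) with the covariate and 0.47 (0.666) without libraries 3 to 6. Its call was lost in 10 of 12 fits that left out 1 liver, and DESeq2 called 7 of 67 genes of the lists in this comparison and the fit of 30 livers 15 of 70, where they called 1135 and 2331 of all genes. Between the restricted diets 6 of 69 were called (8.70%, against 10.7% of all genes), 4 higher and 2 lower in Cas-5%. In the difference of the casein and soy effects 7 of 70 were called (10.0%, against 8.69%), 3 higher and 4 lower. That count was 1 of 70 with the covariate, 0 of 70 without libraries 3 to 6 and 4 of 69 when Soy-20% took the place of Soy-20% + SAA. Across 5 diets 34 of 70 were called (48.6%, against 43.4%), a count that was 17 with the covariate and 15 without the 4 libraries, where the count over all genes went from 5450 to 3542 and 3433. Rragb was not analysed here.

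The genes whose level followed Rptor and Tsc1 most closely over the 30 livers are given as a description. Among 8799 genes with a mean of at least 50 counts, Rptor was most like Tcf25 (Pearson r of log2 CPM of 0.741 over 30 livers), Pigq (0.729) and Ctcf (0.724). Without Soy-20% + SAA libraries 3 to 6 these values were 0.554, 0.491 and 0.693 over 26 livers. Tsc1 was most like Abcb8 (0.804, and 0.695 over 26 livers), Ggnbp2 (0.773, and 0.666) and Mylk (0.745, and 0.576). The livers share diet, library depth and the GC trend, which enter every such value.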

How the data were processed

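Liver messenger RNA was measured by 3′ RNA sequencing in 30 mice. The authors deposited whole read counts per gene, and a second table of the same counts divided by the size factors of DESeq2, a normalized signal. Per the submitters' processing notes they used R 4.0.3 and DESeq2 1.30. The aligner settings and use of strand are not given in the sources used here. Size factors ran from 0.759 to 1.30, every gene in the tables had at least 90 counts over the 30 livers, and genes below that were not analysed here. Levels are normalized counts (mean ± SD). Tests used the counts in edgeR 4.0.16 (filterByExpr, TMM, quasi-likelihood F test) in R 4.3.3, each pair of diets on its 12 livers, the difference of effects on 24 and all diets on 30, with Benjamini-Hochberg adjustment over all genes tested and calls at 0.05. DESeq2 1.42.0 was an alternative. Standard errors and 95% intervals come from the same fits. The steps were tested on simulated data. The 10 genes and the pathway lists were chosen with earlier results of these data known. Other pathway genes were named as the up to 3 called genes with the smallest p in each direction of each comparison, leaving out 1 gene that is not reported here, plus Bmt2, Sesn2, Sesn3, Ddit4, Atf4, Tsc2 and Eif4ebp1. Lamtor1, Lamtor2 and Castor2, and the likeness over 26 livers, were added after their values were seen.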

Additional observations from a re-analysis of the deposited data

Results flagged for a closer look

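The effect of casein restriction differed from that of soy restriction against Soy-20% + SAA, by an interaction test over 24 livers (edgeR, Benjamini-Hochberg adjustment), for Mtor (0.692 on the log2 scale) and Rptor (0.490). The same test picked out 5 genes reported here of the pathway lists by the naming rule. The difference was positive for Deptor (0.291) and Eif2s2 (0.559). It was negative for Rheb (-0.537), Ppp1r15b (-1.195) and Tbc1d7 (-0.762). Without Soy-20% + SAA libraries 3 to 6 the adjusted p of each of these 7 genes was above 0.05. That fit leaves 2 livers of Soy-20% + SAA, and its differences for Mtor and Rptor are given above. With the covariate 1 of 70 genes of the lists was called in this test, with a negative difference, in the GCN2 and eIF2 arm. With Soy-20% in place of Soy-20% + SAA 4 of 69 were called, 3 with a positive and 1 with a negative difference.

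Single livers lay far from the other 5 of their diet in 2 of 50 groups for the 10 genes. Soy-10% liver 5 had 186.9 counts of Rictor (next highest 169.5) and 86.59 of Eif2ak4 (next highest 70.23). In the pathway genes this was so in 3 of 80 groups. Sar1b was 1962 in Cas-20% liver 2 (next lowest 2497), and Lamtor4 was 1012 in Cas-20% liver 6 (next 923.8) and 840.9 in Soy-20% + SAA liver 1 (next 1042). Chance alone gives about 1 such group in 20.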

How the results depend on the processing

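Of 602 values of the 10 genes under other settings, 568 kept their status, mostly as not called. A call was lost by 22 and gained by 12, and no called value turned its sign. With the GC slope as a covariate 8 calls were lost and 3 gained. Without Soy-20% + SAA libraries 3 to 6, 8 were lost and 2 gained. Every call gained in these settings was of Rictor. RLE size factors and a filter of at least 10 counts in every liver changed no call. With the GC slope as a covariate the number of the 10 genes called was 1 in Soy-10% against Soy-20% + SAA, 0 in Cas-20% against Soy-20% + SAA, 1 for the casein effect minus the soy effect and 3 across 5 diets. Without Soy-20% + SAA libraries 3 to 6 these numbers were 0, 0, 1 and 3. When Soy-20% replaced Soy-20% + SAA in the difference of effects, 0 were called, with 746 over all genes. In 1 fit of all 30 livers 3 were called in Soy-20% against Soy-20% + SAA, 2 in Cas-20% against Soy-20% + SAA and 1 in Cas-5% against Soy-10%. DESeq2 called 2 in Cas-20% against Soy-20% + SAA and 1 in Cas-5% against Soy-10%, where no filter on low counts also gave 1. The cause of these shifts was not tested.

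Replicate numbers were shared between diets, but same-numbered livers did not deviate together (r from -0.189 to 0.196, above 0.1 in at most 2 of 6 pairs). A fit with the number as a block left 1 of the 10 called in Cas-5% against Soy-10%, losing Eif2ak4 (0.37, adjusted p = 0.0635), and changed no other call among them. With each liver left out, the number called was 1 to 2 in Cas-5% against Cas-20%, 2 to 2 in Soy-10% against Soy-20% + SAA, 0 to 0 in Soy-10% against Soy-20%, 0 to 2 in Soy-20% against Soy-20% + SAA, 0 to 3 in Cas-20% against Soy-20% + SAA, 1 to 2 in Cas-5% against Soy-10%, 2 to 3 for the difference of effects and 4 to 6 across 5 diets. Across the 5 diets the call of Rraga was lost without Soy-10% liver 6 (highest adjusted p = 0.0509).

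Over all genes, calls in Soy-10% against Soy-20% + SAA were 2035, and 358 with the covariate, 317 without the 4 libraries and 3077 in the fit of 30 livers. In Soy-10% against Soy-20% they were 103, and 217 with DESeq2 and 62 in the fit of 30 livers. In Soy-20% against Soy-20% + SAA 1 gene was called, and 873 by DESeq2, 1793 in the fit of 30 livers, 2 with RLE size factors or either other filter, and 0 with the covariate or without the 4 libraries. In Cas-20% against Soy-20% + SAA they were 291, and 1135 by DESeq2, 2331 in the fit of 30 livers, 141 with the block, 5 with the covariate and 3 without the 4 libraries. The difference of effects had 1089, and 533 and 296 with the covariate and without the 4 libraries. Across 5 diets they were 5450, 3542 and 3433. With 1 liver left out they ran from 1219 to 3119, from 50 to 146, from 0 to 1587, from 9 to 1817, from 719 to 1941 and from 4626 to 6074 in the same order. Rragd, at 6 to 22 reads in a library, and the 2 livers of Soy-20% + SAA that remain without libraries 3 to 6 limit the precision.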
